A study of Caenorhabditis elegans with 2 samples.

Results

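The regions described here are the autosomal intergenic peaks of ZTF-4 that lie outside promoters, in a chromatin immunoprecipitation and sequencing (ChIP-seq) study of the nematode Caenorhabditis elegans. They were chosen by position alone. A peak was taken if it passed the authors' reproducibility threshold, lay on an autosome, and had its summit inside no protein-coding gene and in no promoter window, meaning the 1000 bp before and the 200 bp after the annotated 5' end of a coding gene. This left 343 of 1898 peaks (18.1%, exact Clopper-Pearson 95% interval 16.4 to 19.9), or 343 of the 1539 autosomal peaks (22.3%, 20.2 to 24.5). Of the other autosomal peaks, 786 had their summit in a promoter window and 410 in a gene body.

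The study holds 1 group of 2 biological replicates, with no second condition. Each is a preparation of whole L1 larvae of pooled sexes from strain OP322, genotype unc-119(ed3) III; wgIs322, in which wgIs322 is an insertion that targets ztf-4. By the labels the target was eGFP-ztf-4, ZTF-4 joined to a green fluorescent protein, and the antibody field reads ztf-4. Neither the antibody, nor the extraction, nor the place and copy number of the insertion is given in the sources used here. The control library was not analysed here. Whole larvae mix all tissues, so a low signal in many cells and a high signal in few cannot be told apart. The files are peak lists, which leave the depth unknown, and all intervals cover counting error only.

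ZTF-4 is named as a zinc finger protein, a class whose members often bind DNA and regulate transcription. In the compact worm genome most regulatory elements lie close to the 5' ends of genes, and intergenic sequence farther away can hold enhancers, the downstream flanks of genes, and non-coding genes with promoters of their own. Many worm transcripts receive a spliced leader in place of their original start, so transcription can begin upstream of an annotated 5' end. To judge where the 343 summits lay, every autosomal base that meets the same positional rule was counted. This eligible sequence comes to 19.4 Mb, 23.5% of the autosomes.

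The summit with the 50 bases to each side of it is shown for the 10 strongest of these peaks, to let the letters found most often in the whole set be seen in place. They are read from the plus strand of WBcel235 (ce11), 5' to 3'. Capitals mark GAGAGA or CGTCTC on either strand. GAGAGA and GAGACG, which is CGTCTC on the other strand, share their first 4 letters. The sup-26 window, from the peak of second rank, holds neither.
ins-13 peak, II:5543559-5543659: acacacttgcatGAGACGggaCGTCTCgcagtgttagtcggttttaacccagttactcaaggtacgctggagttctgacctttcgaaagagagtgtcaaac
sup-26 peak, III:4282107-4282207: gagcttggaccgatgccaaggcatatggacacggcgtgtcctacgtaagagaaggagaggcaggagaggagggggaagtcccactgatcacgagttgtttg
hif-1 peak, V:20778379-20778479: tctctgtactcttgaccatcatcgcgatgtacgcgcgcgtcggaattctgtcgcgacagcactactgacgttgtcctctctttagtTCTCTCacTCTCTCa
cmd-1 peak, V:1151449-1151549: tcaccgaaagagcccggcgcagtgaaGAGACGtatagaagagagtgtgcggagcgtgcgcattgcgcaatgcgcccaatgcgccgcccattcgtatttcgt
xbx-5 peak, III:3801467-3801567: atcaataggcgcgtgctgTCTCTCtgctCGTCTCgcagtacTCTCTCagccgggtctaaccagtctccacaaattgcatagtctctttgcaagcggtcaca
F07H5.13 peak, II:8787544-8787644: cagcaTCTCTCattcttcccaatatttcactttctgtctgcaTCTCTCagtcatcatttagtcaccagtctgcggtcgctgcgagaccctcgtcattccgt
T04C4.3 peak, IV:2219573-2219673: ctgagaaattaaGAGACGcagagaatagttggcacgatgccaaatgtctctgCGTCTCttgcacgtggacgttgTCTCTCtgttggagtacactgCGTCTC
F54F12.1 peak, III:13061283-13061383: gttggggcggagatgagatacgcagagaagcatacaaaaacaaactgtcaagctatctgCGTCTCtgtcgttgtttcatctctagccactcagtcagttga
egl-9 peak, V:10466676-10466776: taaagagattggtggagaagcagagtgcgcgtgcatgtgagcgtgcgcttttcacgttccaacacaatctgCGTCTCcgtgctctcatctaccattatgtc
cpg-4 peak, V:6000455-6000555: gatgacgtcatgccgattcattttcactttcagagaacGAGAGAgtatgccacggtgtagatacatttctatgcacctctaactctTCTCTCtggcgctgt
Of the 10 windows, 9 held at least 1 marked match. The T04C4.3 window held 4, the highest number of the 10, and the xbx-5 window held 3.

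GAGAGA, read on either strand, lay within 50 bp of the summit in 134 of the 343 intergenic peaks (39.1%, 33.9 to 44.5). Among the 185103 windows of the same length that tile the eligible sequence, 5.59% held it. The windows 300 bp to the left and to the right of the same peaks held it in 6.41% and 8.45%, so the letters were concentrated at the summits. Among the other peaks, 24.6% of autosomal promoter summits, 30.7% of autosomal gene body summits and 14.6% of the 123 intergenic summits on X held it.

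Of all 2080 6-mers counted with their reverse complements, CGTCTC had the highest ratio of summit to flank among those present in at least 5% of the intergenic peaks. It was present at 76 summits (22.2%), against 2.92% and 2.04% of the left and right flanks and 2.58% of eligible windows. It was about as frequent in autosomal promoter peaks (20.4%) and gene body peaks (21.7%), and lower in X intergenic peaks (10.6%). By that ratio GCAGAC came next, present at 13.1% of the intergenic summits, and AGACGC after it, present at 15.7%. Equal in ratio behind them were ACGTGC at 6.997%, and CCGCTC and also CGTGCA at 5.25% each. The longer run CTGCGTCTC, put together from these after they were seen, stood at 34 intergenic summits (9.91%), against 0.521% of eligible windows. It stood at 11.3% of autosomal promoter summits, 9.27% of gene body summits and 4.88% of X intergenic summits. GAGAGA or CGTCTC was present at 165 of the 343 (48.1%), against 7.58% of eligible windows. These 6-mers were picked by their ratio, so their shares are a description and carry no test.

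Letters of known elements were counted in the same windows. AATAAA, the polyadenylation signal, lay in 34 windows (9.91%, 6.96 to 13.6), against 22.5% of eligible windows. TATAAA, the letters of the TATA box, lay in 4.08%, against 12.1%. CACGTG, the palindromic E box, lay in 30 windows (8.75%, 5.98 to 12.3), against 1.42%. The B box letters GTTCGANNC of promoters inside tRNA genes lay in 6 windows (1.75%, 0.645 to 3.77), against 0.794%, which lies inside the interval. GCGCGC lay in 4.08% (2.25 to 6.75), against 0.742%.

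Base composition differed in the same windows. The median GC content at the 343 summits was 45.5%, against 33.7% in the flanks and 33.7% in eligible windows, and 294 summits (85.7%) had more GC than their flanks. This was not particular to the intergenic peaks. The median was 46.5% at autosomal promoter summits, 46.5% at gene body summits and 45.5% at X intergenic summits. In the same order, 88.3%, 81.7% and 87.0% of summits had more GC than their flanks. Soft-masked bases, which the reference marks as repeats or low complexity, made up a mean of 16.1% of the summit windows, against 41.3% of eligible windows. Windows with over 50% of their bases masked were 22 of the 343 (6.41%), against 36.9%. The part of base composition and of repeats in the letter counts, and in the positions given below, was not tested.

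The signal of a peak is the caller's own height, and peak classes are compared only within a list. Signals of the 2 replicates come from separate lists. Whether these lists share a scale is not known, so every comparison of replicate signals also holds any difference in scale. Over the 343 intergenic peaks the signal in the final list ran from 49.6 to 398, with a median of 71.4 and quartiles of 57.6 and 95.5. The medians were 77.1 in autosomal promoter peaks, 66.2 in autosomal gene body peaks and 75.9 in X intergenic peaks, and the quartile ranges of all of them overlap. In the relaxed list of the pooled replicates, 4227 regions lay at eligible positions, and the authors' threshold kept 343 of them (8.11%, 7.31 to 8.98). Over the whole pooled list it kept 8.24%, so intergenic regions were retained at about the background rate. It kept 14.2% of autosomal promoter regions and 4.75% of gene body regions.

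The strongest intergenic peak covered II:5543451-5543665 and had a signal of 219 in replicate 1 and 194 in replicate 2. Its summit fell 11 bp into sls-2.2, a gene for the SL2 spliced leader RNA that is joined to the downstream messages of worm operons, and also inside the non-coding gene C17C3.23. The nearest coding gene was ins-13, an insulin-like peptide gene, whose 3' end lay 903 bp away. A second peak 204 bp away had a signal of 125 in replicate 2 and no summit within 100 bp in replicate 1. Another, 719 bp from the first, lay 55 bp upstream of sls-2.3, another SL2 RNA gene, with 43.3 in replicate 1 and 18.03 in replicate 2. These 3 peaks were the whole count for the list of insulin-like genes (0.875%, 0.181 to 2.53, against 0.381% of eligible bases, which lies inside the interval).

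Among the next strongest were peaks upstream of sup-26, hif-1 and egl-9. The peak at III:4282014-4282295, at −1933 bp from the 5' end of sup-26 (an RNA-binding protein gene), had 169 in replicate 1 and 175 in replicate 2. The peak at V:20778321-20778523, at −1978 bp from hif-1, the hypoxia-inducible transcription factor, had 147 in replicate 1 and 140 in replicate 2. A weaker peak at −1380 bp from hif-1 had 42.9 in replicate 1 and 17.1 in replicate 2. Another, 359 bp from the 3' end of hif-1, had 35.5 in replicate 1 and 37.8 in replicate 2. The peak at V:10466551-10466900, at −1791 bp from egl-9, had 123 in replicate 1 and 103 in replicate 2, and its summit lay inside the non-coding genes F22E12.9 and F22E12.10. EGL-9 is the prolyl hydroxylase that marks HIF-1 for destruction. Which gene, if any, a peak acts on was not tested.

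The peak nearest to cmd-1, the calmodulin gene, covered V:1151387-1151592 at −4772 bp and lay inside the long non-coding gene linc-128, with 125 in replicate 1 and 138 in replicate 2. The peak at III:3801458-3801623 lay 384 bp from the 3' end of xbx-5 and at −1050 bp from mtm-3, a myotubularin-type phosphatase gene, with 132 in replicate 1 and 126 in replicate 2. The peak nearest to F54F12.1, at III:13061277-13061373, was the least even of the 10 strongest, with 84.2 in replicate 1 and 140 in replicate 2. All 20 of the strongest had a match in both replicates. Among them was also a peak 13 bp from the non-coding gene C10F3.15, 1161 bp from the 3' end of the proteoglycan gene cpg-4 and at −3096 bp from the 5' end of fos-1, a bZIP transcription factor gene. Another lay 187 bp from the 3' end of nuo-4, a gene of the respiratory chain, and at −2042 bp from ogt-1, the O-GlcNAc transferase gene. The peak nearest to aakg-1, an AMP-activated kinase subunit gene, lay at −8282 bp.

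**Figure D1:**
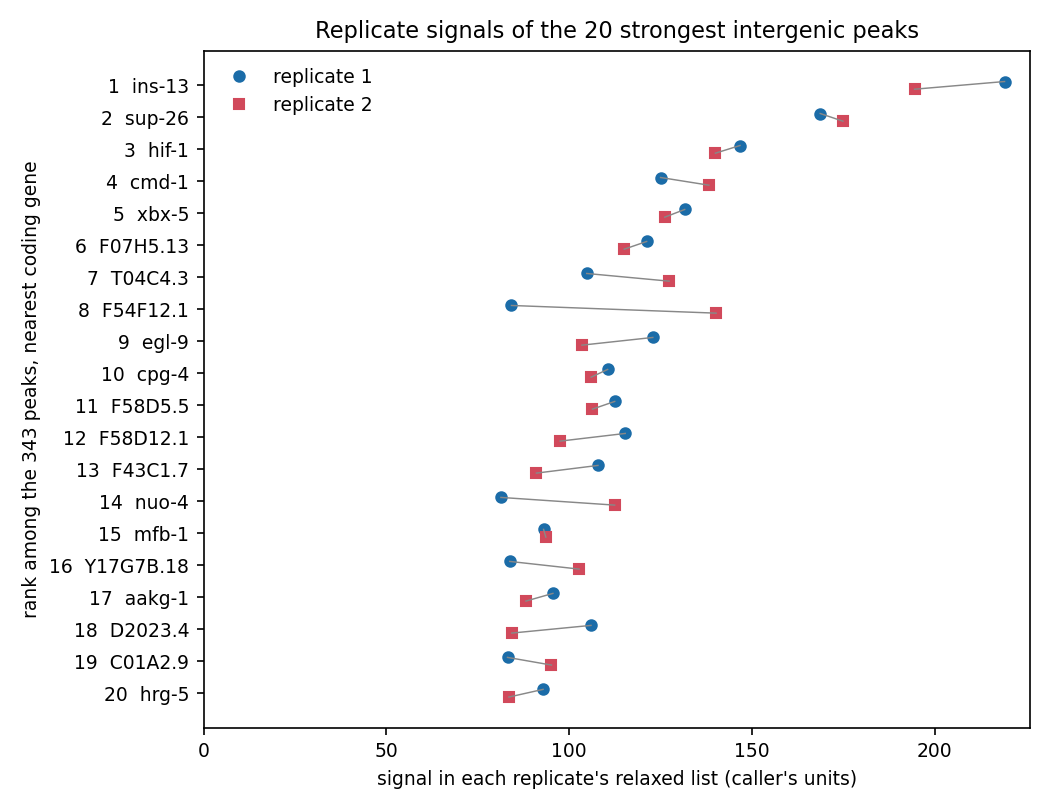
Signal in replicate 1 (circles) and replicate 2 (squares) of the 20 strongest autosomal intergenic peaks, each named by its rank among the 343 and the coding gene with the nearest boundary. The first peak, near ins-13, stands at 219 and 194, and the eighth, near F54F12.1, has the widest gap, 84.2 in replicate 1 and 140 in replicate 2.

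The intergenic peaks lay nearer to coding genes than eligible sequence does. The median distance from a summit to the nearest coding gene boundary was 1358 bp (quartiles 488.5 and 2438.5, range 13 to 13374), against 1812 bp for eligible bases (quartiles 1020 and 3346). The boundary was a 3' end for 174 peaks (50.7%, 45.3 to 56.1), against 51.7% of eligible bases, so the eligible share lay inside the interval.

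Near either kind of end, density was highest in the nearest bin and lowest in the farthest. Of the peaks nearest to a 3' end, 55 lay within 250 bp of it (16.04% of the 343, 12.3 to 20.4, against 8.47% of eligible bases), a density of 33.5 peaks per Mb against 17.7 per Mb over all eligible sequence. The density was 25.5 per Mb from 250 to 500 bp, 16.9 from 500 to 1000 bp, 12.5 from 1000 to 2000 bp and 9.39 beyond. Of the peaks nearest to a 5' end, 57 lay from 1000 to 1500 bp (16.6%, 12.8 to 20.99, against 10.7%), at 27.4 per Mb, and 16 lay beyond 5000 bp, at 9.76 per Mb. The steps between were not even, with 17.7 per Mb from 1500 to 2000 bp and 20.5 per Mb from 2000 to 3000 bp.

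**Figure D2:**
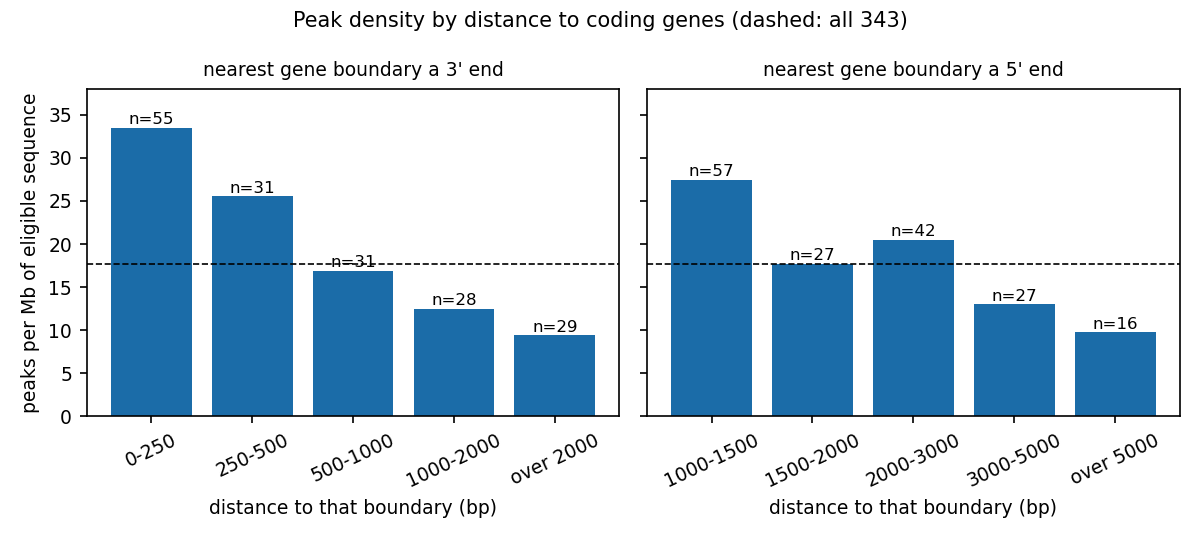
Number of intergenic peaks per Mb of eligible sequence (vertical axis) by distance in bp from the summit to the nearest coding gene boundary, where that boundary is a 3' end (left) or a 5' end (right), with the number of peaks above each bar. The dashed line is the density over all 343 peaks, 17.7 per Mb. The bars nearest to genes, 33.5 and 27.4 per Mb, are the highest in their panels.

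Of the 86 peaks within 500 bp of a nearest 3' end, 16 (18.6%, 11.0 to 28.4) were also 1000 to 2000 bp upstream of the nearest coding 5' end. Peaks with another 5' end nearer were left out, as at 1159 bp upstream of spe-54, so more lay that far from some coding 5' end. A non-coding gene lay within 200 bp of 30 of the 86 (34.9%, 24.9 to 45.9), against 50 of the other 257 intergenic peaks (19.5%, 14.8 to 24.8). The matching shares of eligible bases were not counted. The median signal of the 86 was 72.7, against 73.8 in the 21 peaks over 5000 bp from any boundary. It was 74.3 in all 174 peaks with a 3' end nearest and 66.8 in the 169 with a 5' end nearest, with quartiles of 58.6 and 97.0 for 3' ends and 56.6 and 91.9 for 5' ends, which overlap.

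By the direction of the neighbouring genes, 202 peaks (58.9%, 53.5 to 64.1) lay between genes transcribed the same way, against 53.5% of eligible bases. A further 29.4% (24.7 to 34.6) lay between genes transcribed away from each other, against 28.8%. Between genes that face each other with their 3' ends there were 39 (11.4%, 8.21 to 15.2), against 17.6%. Relative to the nearest 5' end of any coding gene, 249 summits (72.6%, 67.5 to 77.2) were upstream, against 65.4% of eligible bases, and 117 (34.1%, 29.1 to 39.4) were upstream and within 2000 bp, against 24.1%.

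The values on either side of the promoter edge were as follows. Just beyond 1000 bp upstream, and so included, were peaks at 1001 bp from T19C4.24 (signal 55.2), 1003 bp from dhs-8 (55.3) and 1011 bp from tax-6, the calcineurin gene (57.3). Just within it, and so left out, were peaks at 996 bp from mksr-2 (60.8), 991 bp from ppm-2 (159) and 975 bp from mstr-1 (254). Downstream of a 5' end the nearest intergenic peak was at 503 bp, beyond the short gene sec-61.B (76.1).

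The farthest peaks were all on chromosome IV. They lay 13374 bp from irld-18 (45.7 in replicate 1 and 49.8 in replicate 2), 12294 bp from the collagen gene col-105 (17.6 in replicate 1 and 20.4 in replicate 2) and 9889 bp from dmd-6 (41.9 in replicate 1 and 35.1 in replicate 2). Each was present in both replicates.

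Across the autosomes, density was highest on III (69 peaks, 24.7 per Mb of eligible sequence) and lowest on V (65 peaks, 12.6 per Mb). It was 21.6 per Mb on I (61 peaks), 18.4 on II (66 peaks) and 16.3 on IV (82 peaks). With each autosome cut into 3 equal stretches, the central stretch, which holds more of the broadly used genes and fewer repeats than the arms, had 158 peaks (46.1%, 40.7 to 51.5) in 30.4% of the eligible sequence. That is 26.8 per Mb, against 13.7 per Mb in the outer stretches.

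**Figure D3:**
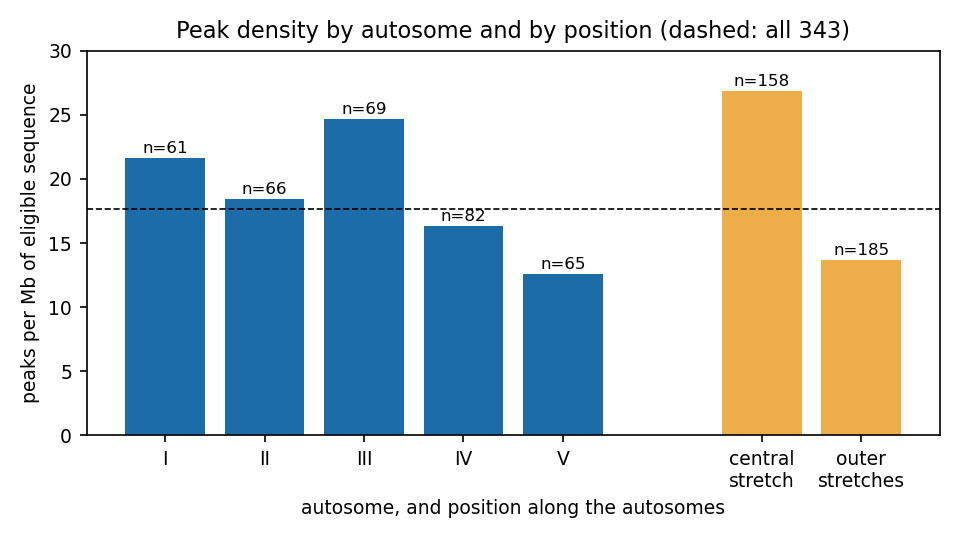
Intergenic peaks per Mb of eligible sequence on each autosome (left) and in the central and outer stretches of all autosomes, each cut into 3 equal lengths (right), with the number of peaks above each bar and the density over all 343 as a dashed line. Chromosome III has the highest bar of the autosomes at 24.7 per Mb, and the central stretch stands at 26.8 against 13.7 per Mb in the outer stretches.

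Non-coding genes other than piRNA genes lay within 200 bp of 80 intergenic summits (23.3%, 18.9 to 28.2), against 19.8% of eligible bases. This near-equal total hides biotypes that went opposite ways. Genes of the annotation's general class ncRNA lay near 55 summits (16.04%, 12.3 to 20.4, against 4.07% of eligible bases), and small nucleolar RNA (snoRNA) genes near 14 (4.08%, 2.25 to 6.75, against 0.170%). Pseudogenes lay near 5 (1.46%, 0.475 to 3.37), against 14.5%, and piRNA genes near 5, against 7.89%. Of those last 5 peaks, 4 were on IV, where most piRNA genes of the worm lie, and 1 was on V.

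**Figure D4:**
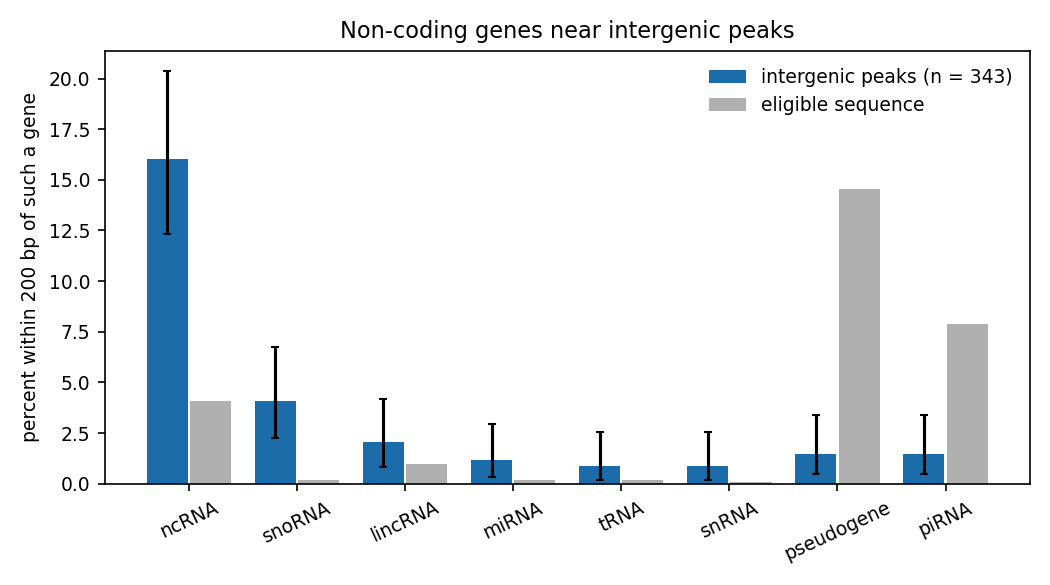
Percent of the 343 intergenic summits (left bar of each pair, with exact 95% interval) and of eligible bases (right bar) that lie within 200 bp of a non-coding gene, by biotype. The bars of ncRNA (16.04 against 4.07%) and snoRNA (4.08 against 0.170%) are higher for the peaks, and those of pseudogenes (1.46 against 14.5%) and piRNA genes (1.46 against 7.89%) are lower.

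The 55 summits near genes of the class ncRNA lay on all sides of them. Of these summits, 23 fell inside the gene, 16 upstream of its 5' end and 16 beyond its 3' end. Their signals ran from 10.6 to 219 in replicate 1 and from 9.56 to 194 in replicate 2, and 3 had no match in replicate 1 and 4 none in replicate 2. Inside a gene of any of these biotypes lay 33 summits (9.62%), against 14.5% of eligible bases, most of which are in pseudogenes (12.2%).

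snoRNAs guide the chemical modification of ribosomal and other RNAs. Of the 14 summits near one, 10 lay upstream of its 5' end, 3 inside it and 1 beyond its 3' end, with a median position of −51.5 bp (range −103 to 206), and 10 of the 14 also lay within 500 bp of a coding 3' end. The strongest was at ZK20.9, 32 bp upstream, with 56.3 in replicate 1 and 68.5 in replicate 2. At F25H2.15 the summit was 79 bp upstream, 284 bp from the 3' end of the ubiquitin-conjugating enzyme gene ubc-25, with 40.2 in replicate 1 and 58.5 in replicate 2. At F30H5.4, near the 3' end of unc-45 (a myosin chaperone gene), it was 48 bp upstream, with 32.5 in replicate 1 and 45.6 in replicate 2. The snoRNA-associated peaks were of ordinary height, with a median signal of 71.3 against 71.4 for all 343.

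For 4 summits a microRNA gene lay within 200 bp (1.17%, 0.319 to 2.96, against 0.169% of eligible bases), and 3 of these genes belong to the mir-51 family, a set of microRNAs that share a seed. The summit at cel-mir-53 was 126 bp upstream, with 92.8 in replicate 1 and 83.5 in replicate 2. That at cel-mir-52 was 17 bp upstream, with 97.6 in replicate 1 and 31.3 in replicate 2, and also lay inside the non-coding genes Y37A1B.330 and Y37A1B.335. That at cel-mir-51 was 160 bp upstream, with 30.8 in replicate 1 and 25.1 in replicate 2. The summits at cel-mir-51 and cel-mir-53 lay in the same 2418 bp stretch between alh-3 and hrg-5, so they are not separate loci. The replicates were thus close at cel-mir-53 and cel-mir-51 and over 3-fold apart at cel-mir-52. Mature sequences of these microRNAs are not printed here.

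Transfer RNA genes lay near 3 summits (0.875%, 0.181 to 2.53, against 0.189%), of which 2 fell inside the gene, with signals of 52.4 to 97.4. Long intergenic RNA genes (lincRNA) lay near 7 (2.04%, 0.824 to 4.16, against 0.987%), 6 of them inside. After linc-128 the highest was in linc-91 near chd-7, a chromatin remodeller gene, with 49.8 in replicate 1 and 69.3 in replicate 2, and linc-129 held 2 peaks near sca-1, the calcium pump gene. Genes of ribosomal RNA and antisense RNA lay near 0 of 343, which allows a share of up to 0.875%. Their shares of eligible bases, 0.0877% and 0.0762%, are below that limit, so a lower share would not be detectable. For the remaining 263 peaks (76.7%) no such gene lay within 200 bp. Of these, 97 were within 2000 bp upstream of the nearest coding 5' end, 56 were within 500 bp of a nearest 3' end, and 121 (46.01%, 39.9 to 52.2) were neither.

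Some genes had several intergenic peaks. The nearest 5' ends belonged to 306 genes, and 28 of these had more than 1 peak. The gene din-1, a corepressor that acts with the nuclear receptor DAF-12, had 4, at −1584, −2313, −3024 and −3918 bp. Their signals were 56.3 in replicate 1 and 68.5 in replicate 2, then 119.2 in replicate 1 and 46.8 in replicate 2, then 44.3 in replicate 1 and 20.9 in replicate 2, then 49.4 in replicate 1 and 78.6 in replicate 2. Neither replicate was the higher one throughout. The small GTPase gene rho-1 had 3, at −1125, −2717 and −3534 bp, with final signals of 53.6, 77.7 and 70.5. Both genes border long stretches without coding genes, 13137 bp at din-1 and 13888 bp at rho-1. Over the whole set, 74 peaks (21.6%, 17.3 to 26.3) had another peak summit within 1500 bp. Summits as close as 200 bp, as at mrpl-20, counted as separate peaks. The same shares were not counted for other peaks or for eligible sequence, so whether the peaks cluster was not tested.

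Most genes nearest to an intergenic peak had no promoter peak, but the share with one was above that of all autosomal coding genes. For 64 of the 343 (18.7%, 14.7 to 23.2) the gene with the nearest 5' end also had a promoter peak, against 3.35% of eligible bases. By gene this was 51 of 306 (16.7%, 12.7 to 21.3), against 1052 of 17242 autosomal coding genes (6.10%). The promoter peak was the higher of the pair in 36 of the 64. At cmd-1 the intergenic peak (260) was above the promoter peak (56.6), at din-1 the strongest intergenic peak (161) was near the promoter peak (144), and at T28B8.1 the intergenic peak (99.0) was below it (218). Gene density and chromosome position differ along the genome, and their part in this share was not tested.

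Genes with the nearest 5' end were also counted in 12 lists made by gene name. Such lists can miss family members with other names, so each count covers listed genes only. Nuclear hormone receptors had the most, with 9 peaks at 9 genes (2.62%, 1.21 to 4.92, against 1.91% of eligible bases). The strongest of these lay at −4643 bp from nhr-20, with 108 in replicate 1 and 91.0 in replicate 2. The list of zinc finger and other named transcription factors lacks, for example, hif-1, fos-1, znf-782, mml-1, xbp-1, let-607 and dmd-6. Each of these had the nearest 5' end to a peak, so the list undercounts such genes. Its listed genes had 4 peaks (1.17%, 0.319 to 2.96, against 1.39%). They were at zip-7, klf-1, atfs-1 and blmp-1. Of these, the peak 138 bp from the 3' end of atfs-1, the regulator of the mitochondrial stress response, had 14.7 in replicate 1 and 40.6 in replicate 2. A stronger peak 2599 bp from that 3' end had 75.2 in replicate 1 and 80.8 in replicate 2. The list did not count it, since T16A9.3 had the nearest 5' end. For both lists the share of eligible bases lay within the interval, which says nothing of transcription factor genes outside the lists. Chemoreceptor genes, most of them used in sensory neurons, had 2 (0.583%, 0.0707 to 2.09), against 7.02%. The neuropeptide list had 2 (nlp-40 and nlp-33, 0.583% against 0.963%) and the collagen list 2 (col-17 and col-105, 0.583% against 0.692%). The collagen list did not count dpy-13 and rol-8, each with the nearest 5' end to a peak. The homeobox list had 1 (0.292% against 0.884%) and the C-type lectin list 1 (0.292% against 0.900%). The lists of ribosomal protein, histone, translation factor and chaperone genes had 0, which allows up to 0.875%. Their shares of eligible bases were 0.0311% to 0.244%, so a lower share would not be detectable with this number of peaks. F44E5.4 and F44E5.5, each with the nearest 5' end to a peak, were not on the chaperone list. None of the 343 lay within 5 kb of ztf-4 or unc-119.

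Between replicates, 319 of the 343 (93.0%, 89.8 to 95.5) had a summit within 100 bp in both relaxed lists, 10 in replicate 1 alone and 14 in replicate 2 alone. The threshold itself favours regions seen in both, so this share is not independent of how the list was made. Over the 319, the median signal was 37.4 in replicate 1 and 35.9 in replicate 2, and the median log2 ratio of replicate 1 to replicate 2 was 0.07 with an SD of 0.71 between peaks. Replicate 1 was higher at 175 (54.9%). The signals lay within 1.5-fold of each other at 212 peaks (66.5%) and over 2-fold apart at 45. Across peaks, which share libraries and are not replicates, the signals correlated at 0.446 (Spearman's rho) and, after log2, at 0.512 (Pearson's r). All final signals were at least 49.6 and lay near the added signals of both replicates. The effect of this limit on the correlations and ratios, here and below, was not tested.

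**Figure D5:**
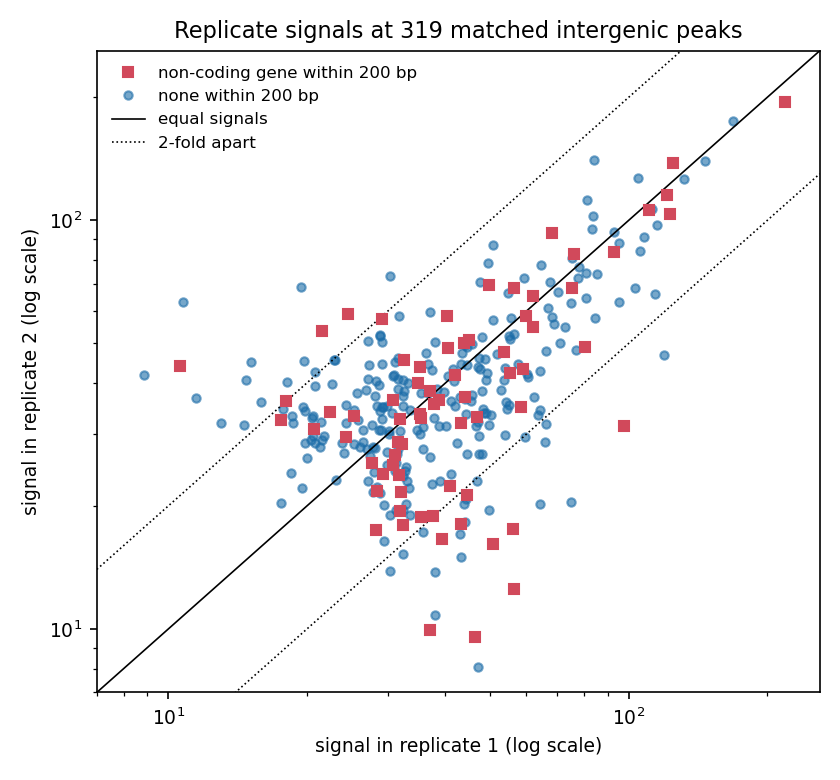
Signal in replicate 1 (horizontal, log scale) against replicate 2 (vertical, log scale) for the 319 intergenic peaks matched in both, with peaks that have a non-coding gene within 200 bp as squares and the others as circles. The solid line marks equal signals and the dotted lines 2-fold differences, and 45 peaks lie outside the dotted lines.

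The intergenic peaks were less even between replicates than autosomal promoter peaks. The SD of the log2 ratio was 0.71 in the 319, against 0.57 in promoter peaks, 0.64 in gene body peaks and 0.56 in X intergenic peaks. Within 1.5-fold were 66.5% of the intergenic peaks, against 74.4% of promoter peaks, 65.0% of gene body peaks and 72.2% of X intergenic peaks. Spearman's rho was 0.446, against 0.637, 0.459 and 0.737 in the same order. These are descriptions, since 2 replicates give no test of a difference in spread. Height moved with evenness: the SD was 0.45 in the 50 strongest intergenic peaks, 0.53 in the next 50, 0.67 in the 100 after those and 0.86 in the remaining 143, of which 88.1% were matched in both.

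The widest gaps lay among the weak peaks. The peak near DH11.2 had 47.0 in replicate 1 and 8.08 in replicate 2, that near pde-2 (a phosphodiesterase gene) had 46.5 in replicate 1 and 9.56 in replicate 2, and that near F45D3.4 had 56.3 in replicate 1 and 12.5 in replicate 2. In the other direction, the peak near C01B10.11 had 8.88 in replicate 1 and 41.9 in replicate 2, and that near F45D3.3 had 10.6 in replicate 1 and 44.1 in replicate 2. At mrpl-20, a mitochondrial ribosomal protein gene, 1 of 2 neighbouring peaks had 10.8 in replicate 1 and 63.2 in replicate 2, while the other, 200 bp away, had 68.9 in replicate 1 and no match in replicate 2. The replicates there placed their high summit at different points of the same stretch, so the height of each of these 2 peaks depends on which summit was matched. When each replicate's own 1898 strongest regions were put through the same positional rule, replicate 1 gave 358 and replicate 2 gave 356. Of the 343, 267 (77.8%) had a counterpart in replicate 1 and also 267 in replicate 2, but these were not all the same peaks. The match ranked among the 1898 strongest regions of its list in both replicates for 203 of the 343 (59.2%).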

How the data were processed

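ChIP-seq peak lists from 2 biological replicates were used as the authors deposited them in assembly ce11: a relaxed list per replicate (27643 and 27140 regions), one on pooled replicates (23044) and the thresholded list (1898). Per the records with the lists, the relaxed lists fed the irreproducible discovery rate (IDR) step. No aligner, peak caller or cutoff is given in the sources used here. In column 7 the authors deposited a signal, which is the caller's height per region, with unstated scaling. Over the 319 matched peaks the final signal was a median of 1.01 times the replicates' added signals (quartiles 0.982 and 1.04, range 0.679 to 1.56). Final signals were therefore not compared in level with replicate signals. Ratios between the replicates used their separate lists as deposited, with no rescaling. Read counts were not used here, and the depth is unknown.

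Summits were annotated with Ensembl 115 on WBcel235, and window sequences and letters were read from the RefSeq copy of that assembly. Coordinates count from 1. The nearest boundary is the nearest annotated coding 5' or 3' end, and negative positions are upstream. Replicates were matched by summits within 100 bp. With 1 group nothing was tested between conditions, and peaks are not replicates. Shares carry exact Clopper-Pearson 95% intervals, and a count of 0 allows 3 counts of the total. Neighbouring peaks can share a gene, which these intervals do not cover. The assignment and matching steps were tested on simulated data. Peaks were named by a rule: the 20 strongest, the strongest per biotype and autosome, the farthest, those at the rule's edges, and those with the most unequal or missing replicate signals. Other named examples, such as those at din-1, rho-1, atfs-1 and the snoRNA and microRNA genes, were chosen after their values were seen. The peaks, lists and letters were chosen with earlier results of these data known. Alternatives were other promoter windows, match and gene distances, what counts as a gene, the upper 949 peaks and each replicate alone. Python 3.11.15, numpy 2.4.6, pandas 2.3.3 and scipy 1.17.1 were used.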

Additional observations from a re-analysis of the deposited data

How the results depend on the processing

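Of 41 alternatives, 14 moved their value by more than its error or, for the number of peaks, by more than 1.5-fold, and 27 did not. The SD of the median distance between the replicates, 24.7 bp, comes from 2 of these same alternatives, each replicate alone, so it is no independent measure of error. When the promoter window took in 2000 bp before and 500 bp after the 5' end, the number of peaks was 214, the share with a 3' end nearest 60.3% and the median distance to a gene boundary 2098 bp. When it took in 500 bp before and 100 bp after, there were 453 peaks and that distance was 991 bp. These follow from the window, which sets how near to a 5' end a peak may lie. Among the 949 stronger peaks there were 167, with 56.3% nearest to a 3' end, a median distance of 1304 bp, 97.0% matched in both replicates and a median signal of 96.2. The lower number and the higher signal follow from taking only stronger peaks. At a limit of 100 bp, 18.1% had a non-coding gene nearby. The share matched in both replicates was 73.5% with summits within 50 bp, 99.7% within 200 bp and 100% for regions that share 1 bp, so at 200 bp all but 1 peak was matched. With each replicate left out in turn, the number ran from 356 to 358, the share nearest to a 3' end from 51.4% to 53.7%, the median distance from 1356.5 to 1391.5 bp and the share near a non-coding gene from 20.8% to 24.0%. No paired analysis was possible because there is 1 group. The depth is unknown, so a region below the threshold cannot be called unbound.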
